A study of Rattus norvegicus with 2 samples.

Results

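The 7 claudins followed here were Cldn3, Cldn4, Cldn5, Cldn6, Cldn7, Cldn9 and Cldn11, taken by symbol from the 32623 genes of the deposited matrices, where each had 1 row. They are 7 of the 28 genes whose symbol starts with Cldn. Cells of the cochlear duct of Sprague-Dawley rats were measured with the 10x Chromium 3′ kit (V3) in 1 droplet library at post-natal day 1 (P1) and 1 at post-natal day 7 (P7), each pooled from several animals. No treatment or genotype differed between them. As each age is 1 library, no test was made between them, no p-value is given, and age and library cannot be told apart. Values are UMIs (unique molecular identifiers, 1 per captured transcript) of a gene scaled to 1000000 UMIs of the same cells (CPM), and all intervals are exact at the 95% level and cover counting error only.

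Claudins are 4-span membrane proteins that line up in the tight junctions between neighbouring cells and set which ions and solutes can pass between them. In the cochlea such junctions keep the potassium-rich endolymph apart from the perilymph. Claudin-9 belongs to the junctions of hair cells and supporting cells, claudin-11 to those of the basal cells of the stria vascularis, and claudin-5 to those of capillary endothelium, the site of the blood-labyrinth barrier. Claudin-3, -4 and -7 are common in epithelia, and claudin-6 is known from embryonic epithelia.

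The libraries held 114285848 UMIs in 14068 barcodes at P1 and 101264868 UMIs in 14501 barcodes at P7. After the limits on genes, UMIs and mitochondrial UMIs, 12779 P1 cells and 12581 P7 cells were kept, with medians of 6565 and 6878 UMIs per cell. Of the barcode sequences kept, 53 occurred in both libraries. Cells were clustered without claudins, junction genes and markers, and clusters were named from marker lists. Both samples carry the label of greater epithelial ridge cells, the transient epithelium medial to the hair cells. The summed level of 9 genes of that ridge was 2534.6 CPM at P1 and 5704.8 CPM at P7 in the epithelial-like cells, but at most 73.1 CPM in the endothelial-like, Otor-high, glia-like and Aldh1a2 mesenchyme-like cells. Among these classes the label therefore fits the epithelial-like cells only, by these markers. The epithelial-like class held 280 P1 cells (2.19%) and 212 P7 cells (1.69%), and a separate hair cell-like cluster held 22 P1 cells and no P7 cell. The endothelial-like class held 166 and 188 cells, the glia-like class 1739 and 3563, the Aldh1a2 mesenchyme-like class 2365 and 1148, and the Otor-high class 3252 and 980. Otor encodes otoraplin, a secreted protein of the inner ear, and its level in the Otor-high class was 14631 CPM at P1 and 20526 CPM at P7. In the Aldh1a2 mesenchyme-like class it was 7781 and 10500 CPM, so Otor was not confined to the Otor-high class. By in situ hybridization, the study reported Otor as nearly restricted to the ridge at P1 and lower there at P7. These libraries hold no positions in tissue, so cells were not placed in the lateral wall. By the methods of the study, microdissection separated the stria vascularis, the spiral ligament and the spiral ganglion before dissociation. How much of these tissues the libraries hold was not measured. The Otor-high cells of the 2 ages came from different clusters, 3238 of the P1 cells from one and 926 of the P7 cells from another, and likewise for the Aldh1a2 mesenchyme-like cells, with 2348 and 1118. A further cluster of 2641 P7 cells led by Dlx5, Asb9 and Sfrp4 had the Otor-high list as its best match but stayed unnamed, because its mean log2 ratio of 0.598 was under the limit of 1.

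RefSeq windows of the 250 bases before the gene start were at hand for 5 of the 7 claudins and are shown because 3 of them, Cldn3, Cldn7 and Cldn6, were high in the same cells while Cldn5 and Cldn11 were each high elsewhere. Cldn4 and Cldn9 had no entry. The windows lie, in the rat build GRCr8, at chr12:27346548-27346797 (minus strand), chr10:55188420-55188669 (plus strand), chr10:13215558-13215807 (plus strand), chr11:95718599-95718848 (minus strand) and chr2:114149540-114149789 (minus strand). They are written 5′ to 3′ on the gene's strand. Capitals mark matches on either strand to 5 motifs. The TATA box was searched as TATAAA. The motif named the CCAAT box was searched by those letters. The GC box, bound by Sp factors, was searched as GGGCGG. The E-box form read by repressors of the Snail and Zeb families was searched as CACCTG. The core of the motif of grainyhead-like factors, regulators of epithelial genes, was searched as CCGGTT. No matches shared a base, and the grainyhead core and 1 E-box of Cldn7 lie side by side.
Cldn3: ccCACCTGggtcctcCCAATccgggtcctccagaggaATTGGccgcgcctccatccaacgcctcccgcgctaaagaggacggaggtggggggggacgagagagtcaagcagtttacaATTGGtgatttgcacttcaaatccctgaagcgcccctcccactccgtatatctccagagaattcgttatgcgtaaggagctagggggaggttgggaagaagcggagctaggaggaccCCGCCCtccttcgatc
Cldn7: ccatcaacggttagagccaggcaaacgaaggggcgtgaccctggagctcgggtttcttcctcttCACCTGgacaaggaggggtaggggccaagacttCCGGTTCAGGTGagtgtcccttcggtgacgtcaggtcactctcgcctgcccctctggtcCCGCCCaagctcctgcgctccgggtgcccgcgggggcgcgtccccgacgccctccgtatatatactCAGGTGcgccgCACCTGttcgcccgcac
Cldn6: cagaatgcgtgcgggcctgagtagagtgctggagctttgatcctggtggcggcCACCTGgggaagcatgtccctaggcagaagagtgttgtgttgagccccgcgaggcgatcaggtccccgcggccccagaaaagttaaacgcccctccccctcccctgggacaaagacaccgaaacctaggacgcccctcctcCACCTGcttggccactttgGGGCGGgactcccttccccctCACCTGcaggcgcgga
Cldn5: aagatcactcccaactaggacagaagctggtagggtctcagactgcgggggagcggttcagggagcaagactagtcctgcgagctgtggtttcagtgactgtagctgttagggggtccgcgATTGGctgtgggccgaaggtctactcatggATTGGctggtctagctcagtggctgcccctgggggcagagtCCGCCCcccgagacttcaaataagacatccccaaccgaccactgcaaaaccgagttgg
Cldn11: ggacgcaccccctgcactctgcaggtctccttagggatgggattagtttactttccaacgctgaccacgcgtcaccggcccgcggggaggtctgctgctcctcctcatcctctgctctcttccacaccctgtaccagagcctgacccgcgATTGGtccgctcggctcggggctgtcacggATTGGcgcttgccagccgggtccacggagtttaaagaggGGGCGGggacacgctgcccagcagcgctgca

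None of the 5 windows held TATAAA, which 12.9% of the 33469 windows in the table hold. All 5 held the GC box once, against 30.5% of all windows. The 5 windows were also richer in G and C, at 58.4 to 65.6% beside a median of 51.2% over all windows. Its part in the matches was not tested. The E-box CACCTG occurred 4 times before Cldn7, 3 times before Cldn6 and once before Cldn3, and not in the windows of Cldn5 and Cldn11. Of all windows 15.9% hold it, 1.84% hold it 2 or more times, and 0.0299% 4 or more times. The grainyhead core stood once before Cldn7 and in 5.67% of all windows. The CCAAT box occurred 3 times before Cldn3 and 2 times each before Cldn5 and Cldn11, and 34.0% of windows hold it. These letters describe the windows and are not sites shown to be bound. In the same assembly Cldn6 and Cldn9 are neighbours with no gene between them, and Cldn3 and Cldn4 are neighbours among coding genes, with 2 genes not classed as protein-coding between them.

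Of the 7 claudins, 5 were highest in epithelial-like cells at both ages, Cldn5 in endothelial-like cells and Cldn11 in Aldh1a2 mesenchyme-like cells. Over the other cells of the same library, 5 of 7 passed 2-fold in the epithelial-like class at P1 and 5 of 7 at P7, where 4.68% and 6.07% of all genes did (log2 of CPM + 5). In the endothelial-like class 1 of 7 passed at each age, against 5.54% and 5.61% of genes. In the Aldh1a2 mesenchyme-like class 1 of 7 passed, against 1.1% and 1.88%. In the Otor-high class, where 0.631% and 1.53% of genes passed, and in the glia-like class, where 3.73% and 3.41% did, none of the 7 passed. The plot of levels by class shows this separation.

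**Figure D1:**
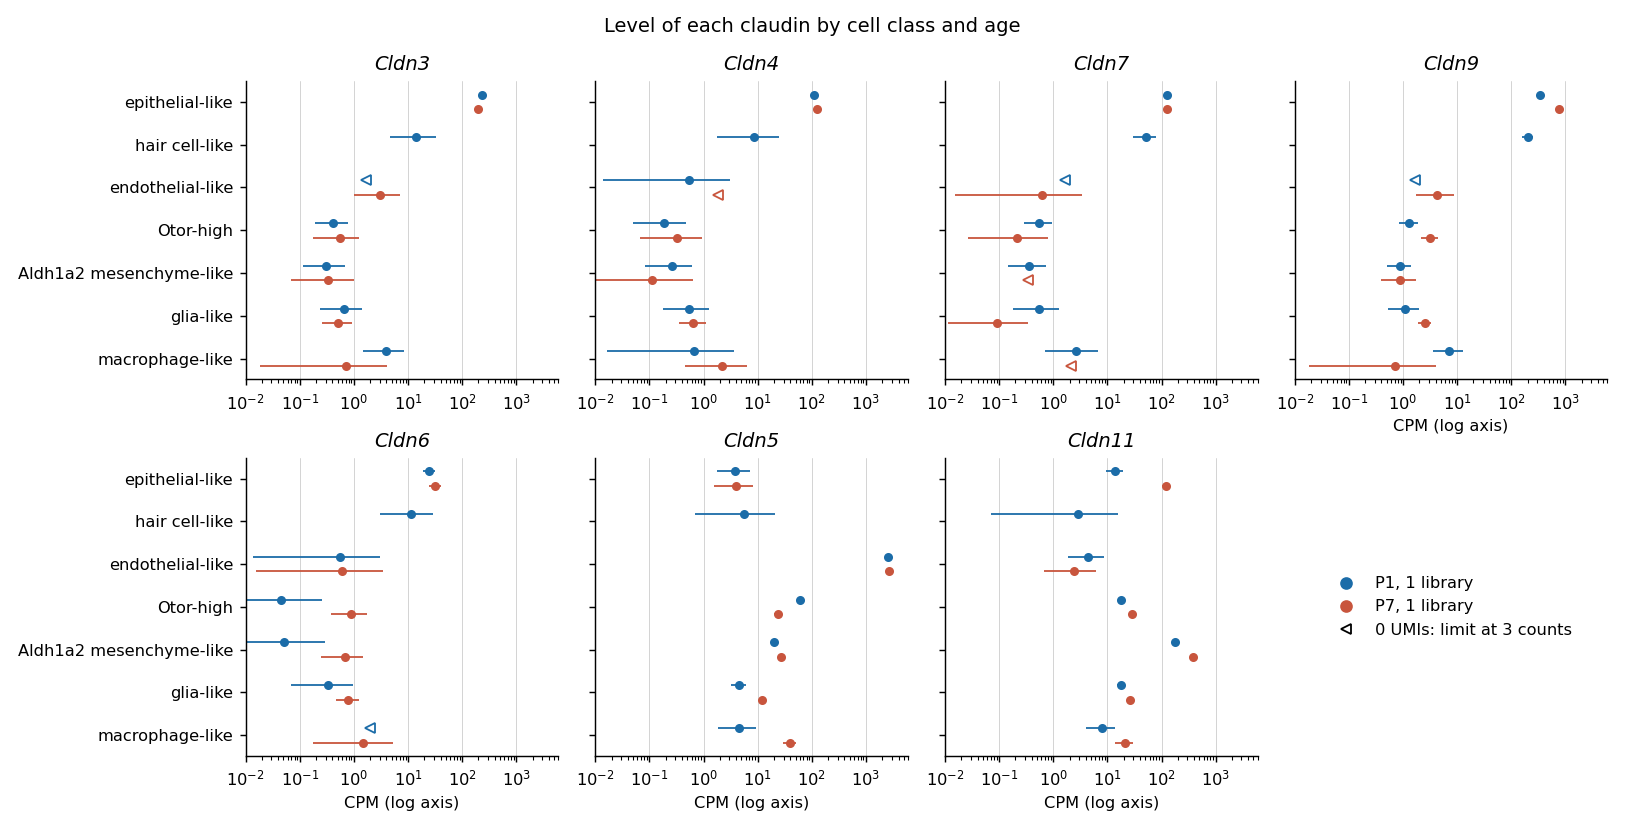
Level of each claudin (CPM, log axis) in 7 cell classes at P1 (blue) and P7 (red), 1 library each, with bars for the 95% Poisson interval of the count, drawn down to 0.01 CPM, and open triangles for the limit given to a count of 0. Cldn3, Cldn4, Cldn6, Cldn7 and Cldn9 were highest in epithelial-like cells, Cldn5 was at 2597 and 2721 CPM in endothelial-like cells, and Cldn11 was highest in Aldh1a2 mesenchyme-like cells.

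In the epithelial-like cells Cldn9 had the highest level of the 7 at both ages and was higher at P7. It stood at 340 CPM (317 to 365) at P1 and 757 CPM (717 to 798) at P7, a log2 ratio (P7 over P1) of 1.15 (1.02 to 1.28). The share of cells with a UMI was 71.8% at P1 and 80.2% at P7, and after thinning to 2000 UMIs it was 38.1% (32.1 to 44.4) and 67.4% (59.0 to 75.0). Thinning left out cells with fewer UMIs, so these shares rest on 252 of the 280 cells at P1 and 141 of the 212 at P7. At P1 17 of 280 cells held 10 or more UMIs of Cldn9, and at P7 54 of 212 did. Of the Cldn9 UMIs in kept cells, the epithelial-like class as a whole carried 81.8% at P1 and 87.7% at P7. In macrophage-like cells, which should lack claudins and served as background, the level was 7.22 CPM at P1 and 0.722 CPM at P7. These 2 values rest on 11 UMIs and 1 UMI. The log2 ratio lay between 1.04 and 1.23 under all 11 alternatives run. The summed level of the 9 ridge genes was also higher at P7 (2534.6 and 5704.8 CPM), and the level of Epcam, an epithelial adhesion molecule, was 1158 and 1879 CPM. Their part in the Cldn9 difference was not tested.

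The hair cell-like cluster, at P1 only, had 204 CPM of Cldn9 (159 to 257), with a UMI in 21 of 22 cells. There Cldn3 was at 14.2 CPM, Cldn4 at 8.49, Cldn6 at 11.3 and Cldn7 at 50.9. These rest on 5, 3, 4 and 18 UMIs. All 5 levels were below those of the P1 epithelial-like cells, and the intervals of Cldn6 overlapped (3.08 to 29.0 and 18.7 to 31.9 CPM).

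Cldn3, Cldn4 and Cldn7 kept nearly the same level in the epithelial-like cells at the 2 ages. Cldn3 was at 229 CPM (210 to 249) at P1 and 197 CPM (177 to 219) at P7, a log2 ratio of -0.22 (-0.42 to -0.02). Cldn4 was at 111 CPM (97.6 to 125) and 125 CPM (110 to 143), a log2 ratio of 0.18 (-0.08 to 0.44). Cldn7 was at 126 CPM (112 to 141) and 125 CPM (110 to 143), a log2 ratio of -0.00 (-0.26 to 0.25). The intervals of Cldn4 and Cldn7 reach 0, and that of Cldn3 ends just below it. These levels cover kept cells only. Barcodes with 5000 or more genes, which were left out and given no class, held unlike shares of the UMIs of all barcodes. The shares were 14.55% at P1 and 29.5% at P7 for Cldn3, 14.0% and 27.0% for Cldn4, and 13.5% and 21.1% for Cldn7. The share of cells with a UMI was 63.2% and 51.4% for Cldn3, 47.1% and 40.6% for Cldn4, and 50.7% and 48.6% for Cldn7. Thinned to 2000 UMIs, the shares were 34.1% and 26.2% for Cldn3, 18.3% and 15.6% for Cldn4, and 21.4% and 20.6% for Cldn7. Between 80.8% and 90.7% of the UMIs of these 3 genes in kept cells lay in the epithelial-like class at each age. Outside the epithelial-like and hair cell-like cells, no class of at least 50 cells was above 3.94 CPM for Cldn3, 2.17 CPM for Cldn4 or 2.88 CPM for Cldn7.

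Cldn6 was the lowest of the 5. Its level in the epithelial-like cells was 24.7 CPM (18.7 to 31.9) at P1 and 32.1 CPM (24.3 to 41.5) at P7, a log2 ratio of 0.38 (-0.18 to 0.93). A UMI was found in 17.1% and 16.0% of cells, and after thinning in 3.97% and 7.09%. Epithelial-like cells carried 78.4% of its UMIs in kept cells at P1 and 45.2% at P7. At P7 no other class of at least 50 cells was above 1.59 CPM. The whole P7 library held 126 UMIs of Cldn6 in kept cells. A difference between the ages in Cldn6 was not detectable at this depth.

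Of the 7 claudins, 6 reached 20 UMIs over both ages in the epithelial-like cells, and 2 of these, Cldn9 and Cldn11, passed 2-fold higher at P7, where 13.7% of all genes did. None passed 2-fold lower, where 7.86% of genes did. The median log2 ratio over the 6 was 0.28, and over all genes tested 0.14. Cldn11 rested on few cells. It had 32 UMIs (13.6 CPM) at P1 and 211 UMIs (119 CPM) at P7, a log2 ratio of 3.12 (2.58 to 3.71), but the 10 cells with most UMIs held 85.3% of the P7 count and 1 cell held 70. Without the 10 cells with most UMIs in each library the log2 ratio was 1.65 (0.70 to 2.68). Within these cells 13 P7 cells led by Otos, Otor and Apod had 568 CPM, and 43.3% of that cluster over both ages were called doublets. Cldn5 was at 3.83 and 3.94 CPM in the epithelial-like cells, which is the level of macrophage-like cells at P1 (4.59 CPM).

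The epithelial-like and hair cell-like cells were clustered again on their own to see how the 5 claudins vary among them. In the cluster led by Oc90, Crhbp and Rgr, Cldn3 reached its highest level, 530 CPM in 17 P1 cells and 334 CPM in 32 P7 cells. Cldn9 was highest at P7 in the cluster led by Ucma, Clca2 and Otoa, the last of which encodes otoancorin, an attachment protein of the tectorial membrane. There it was at 1270 CPM (1153 to 1395), with a UMI in all 31 cells. The same cells had 256 CPM of Cldn3, 221 of Cldn4 and 157 of Cldn7. At P1 Cldn9 was highest, at 585 CPM (529 to 645), in 70 cells led by Igf1, Rbp4 and Tagln. Cldn7 was highest at 202 CPM in 28 P1 cells led by Grifin, Igfbp3 and Cep41. In the 50 P1 cells led by Fst, Upk3a and Lyve1, Cldn9 was at 201 CPM, close to the 185 CPM of Cldn3 and the 163 CPM of Cldn7.

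Clusters with at least 10 cells at both ages allowed the ages to be set side by side within them. Cldn9 was higher at P7 in all 4. It was at 374 and 1149 CPM in the Grifin cluster, a log2 ratio of 1.62 (1.28 to 1.96). In the Oc90 cluster it was at 300 and 494 CPM, a log2 ratio of 0.72 (0.28 to 1.18). In the cluster led by Pmch, Fabp7 and Spink8 it was at 145 and 554 CPM (1.93, 1.09 to 2.91), with 10 P1 cells and glial genes among the leading ones. In the doublet-rich Otos cluster it was at 152 and 493 CPM (1.70, 1.11 to 2.33). Cldn3 had the opposite sign in 3 of the 4, of which only the Oc90 cluster had an interval below 0 (-0.66, -1.05 to -0.27), and was higher at P7 in the Pmch cluster, where it rested on 3 UMIs at P1. A P7 cluster of 85 cells led by Kera, Apoa4 and Tectb was shallow, with a median of 1305 UMIs over the cluster, and had 582 CPM of Cldn9. Only 20 of its 85 cells had UMIs enough for the thinned shares.

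**Figure D2:**
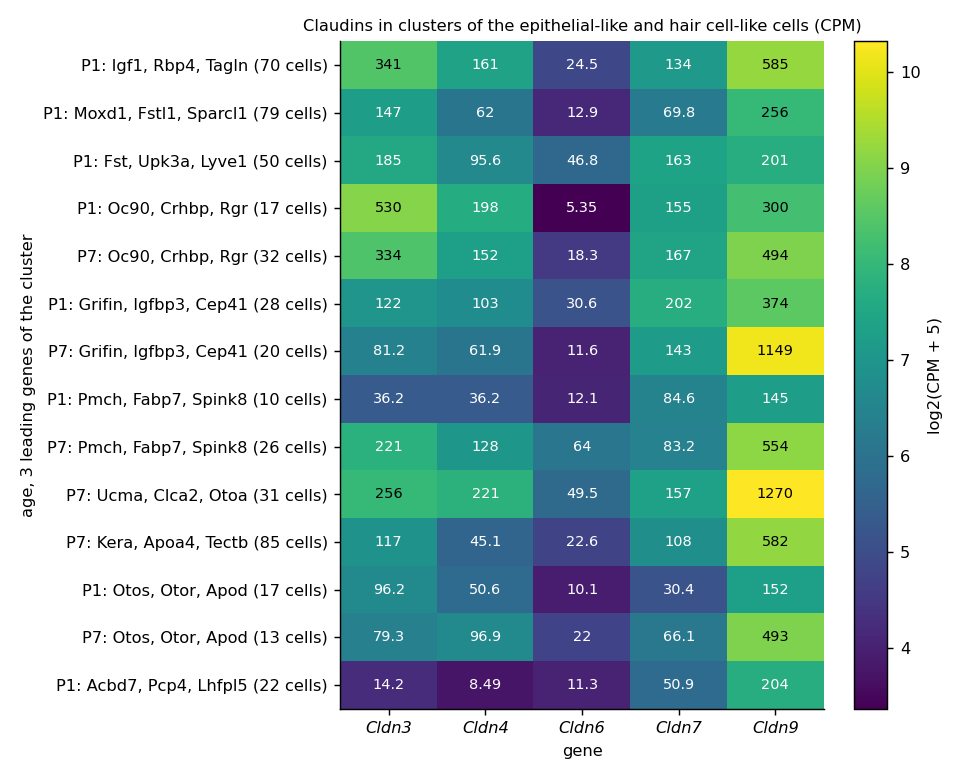
CPM of 5 claudins (columns, numbers in the cells, colour on the log2(CPM + 5) scale) in clusters of the epithelial-like and hair cell-like cells with at least 10 cells of an age (rows, with age, 3 leading genes and number of cells). Cldn9 was highest, at 1270 and 1149 CPM, in 2 P7 clusters, and Cldn3 in the P1 cells led by Oc90, at 530 CPM.

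The 5 epithelial claudins were found together in part of the cells at equal depth. With cells thinned to 2000 UMIs, 29.8% of 252 P1 cells and 19.9% of 141 P7 cells had none of the 5, and 35.3% and 39.0% had 1. A pair of them was found in 25.8% and 29.1%, 3 in 7.54% and 9.22%, and 4 in 1.59% and 2.13%. All 5 were found in 0 of 252 P1 cells, which allows a share of up to 1.45% by the exact interval, and in 1 P7 cell. Of P1 cells with Cldn3, 27.9% (18.8 to 38.6) also had Cldn4, against 13.3% of those without Cldn3. At P7 these shares were 21.6% (9.83 to 38.2) and 13.5%. At P1 the order was the same for Cldn3 with Cldn7, Cldn3 with Cldn9, Cldn4 with Cldn7, Cldn4 with Cldn9 and Cldn6 with Cldn9. Cldn7 was in 30.2% of cells with Cldn3 and 16.9% of those without. The remaining pairs had the opposite order at P1, with Cldn9 in 33.3% of cells with Cldn7 and 39.4% of those without, and Cldn6 in 0 of 86 cells with Cldn3 and 10 of 166 without. At P7 only Cldn7 with Cldn9 had the opposite order, with Cldn9 in 65.5% of cells with Cldn7 and 67.9% of those without. Cldn6 was then in 8.11% of cells with Cldn3 and 6.73% of those without, which rest on 3 and 7 cells. At this depth a missing UMI does not show that a cell lacks the gene.

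Cldn5 was the claudin of the endothelial-like cells, and its level there, in kept cells, was about the same at both ages. It stood at 2597 CPM (2524 to 2672) at P1 and 2721 CPM (2642 to 2802) at P7, a log2 ratio of 0.07 (0.01 to 0.13), below the median of 0.15 over all genes tested. With mitochondrial UMIs limited to under 10% the ratio was -0.01. At P1 93.4% of cells had a UMI and at P7 94.7%, and the median cell held 17 and 19 UMIs, and after thinning in 88.6% and 92.3%. The other 6 claudins were at 0 to 4.38 CPM in these cells. Of the 7 only Cldn5 reached 20 UMIs over both ages there, and it did not pass 2-fold, where 11.2% of genes passed higher and 5.81% lower at P7. Of the Cldn5 UMIs in kept cells, the endothelial-like cells carried 67.8% at P1 and 56.4% at P7. Barcodes left out by the limits held a further part, since all barcodes had 11333 and 9695 Cldn5 UMIs and kept cells 6995 and 7960. Those with 5000 or more genes, which were given no class, held 37.3% of the Cldn5 UMIs of all barcodes at P1 and 15.0% at P7. The effect of this unequal loss on the ratio was not tested.

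Among kept cells, part of the remainder lay in cells with high Otor. In the class named Otor-high, Cldn5 was at 60.2 CPM (57.0 to 63.5) at P1 and 23.3 CPM (20.2 to 26.6) at P7, a log2 ratio of -1.37 (-1.59 to -1.16). The direction depended on which cells were counted. With every cluster whose best list was the Otor-high list, the unnamed P7 cluster included, the levels were 59.7 and 90.8 CPM and the log2 ratio was 0.61 (0.51 to 0.70). With integrated libraries it was 0.61 (0.34 to 0.89), and with all variable genes kept 0.85 (0.75 to 0.94). The unnamed P7 cluster alone had 124 CPM (119 to 129). In the Otor-high class 3 of the 7 claudins reached 20 UMIs, of which Cldn5 passed 2-fold lower, where 12% of genes did, and Cldn9, at 1.28 and 3.15 CPM, passed 2-fold higher, where 13.8% did. The Cldn9 levels rest on 28 and 29 UMIs, beside 7.22 and 0.722 CPM (11 UMIs and 1 UMI) in macrophage-like cells of the same ages.

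When the clusters with the Otor-high list as their best match were pooled and clustered again without claudins, Cldn5 was concentrated in 1 cluster at each age. At P1 it was at 195 CPM (181 to 210) in 613 cells led by Ccn3, Dach1 and Maob, with a UMI in 40.9% of cells. At P7 it was at 646 CPM (617 to 676) in 401 cells led by Pmch, Notum and Cldn5 itself, with a UMI in 68.6%. Maob, Ccn3, Rerg and Slc27a6 were among the 10 leading genes of both clusters. In the other clusters of the pool with cells enough for a value, Cldn5 was between 8.75 and 67.1 CPM. Thinned to 2000 UMIs, 23.6% of the P1 cluster and 53.0% of the P7 cluster had a UMI, against 2.48% of P7 macrophage-like cells. Of the Cldn5 UMIs in kept cells of its age, the P7 cluster held 23.4% and the P1 cluster 10.5%. In the P7 cluster 73 of 401 cells had 10 or more UMIs and the 10 cells with most UMIs held 11.8% of the count, so the level did not rest on a few cells. The ages were compared here between clusters with shared leading genes, not within 1 cluster.

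Endothelial markers were low in these cells. In the P7 cluster Plvap, a protein of endothelial diaphragms, was at 4.51 CPM, Cdh5, the endothelial cadherin, at 1.39 CPM, and Flt1, a VEGF receptor, at 1.04 CPM, against 1554, 622 and 336 CPM in the P7 endothelial-like cells. In the P1 cluster they were at 5.60, 2.40 and 1.60 CPM. Over the 12 endothelial markers found, the summed level was 388 CPM in the P7 cluster and 398 CPM in the P1 cluster, of which Emcn alone made up 364 and 374 CPM, and 2 of the 12 were at 0 in each. The ratio of Cldn5 UMIs to the summed UMIs of the 12 markers was 1.67 (1.55 to 1.80) in the P7 cluster and 0.491 (0.448 to 0.536) in the P1 cluster, beside 0.412 (0.397 to 0.426) and 0.505 (0.487 to 0.523) in the endothelial-like cells of the same ages. Emcn also led the list in the Otor-high class (260 and 489 CPM) and in Aldh1a2 mesenchyme-like cells (868 and 1458 CPM). In endothelial-like cells Plvap led it. The ratios in the clusters are thus mainly ratios to Emcn, and their nearness to the endothelial-like value at P1 has no clear reading. Without cells holding a UMI of Plvap, Cdh5, Flt1 or Epcam the level was 660 CPM in the P7 cluster and 198 CPM in the P1 cluster. The level of Otor was 26116 CPM in the P7 cluster and 18087 CPM in the P1 cluster.

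**Figure D3:**
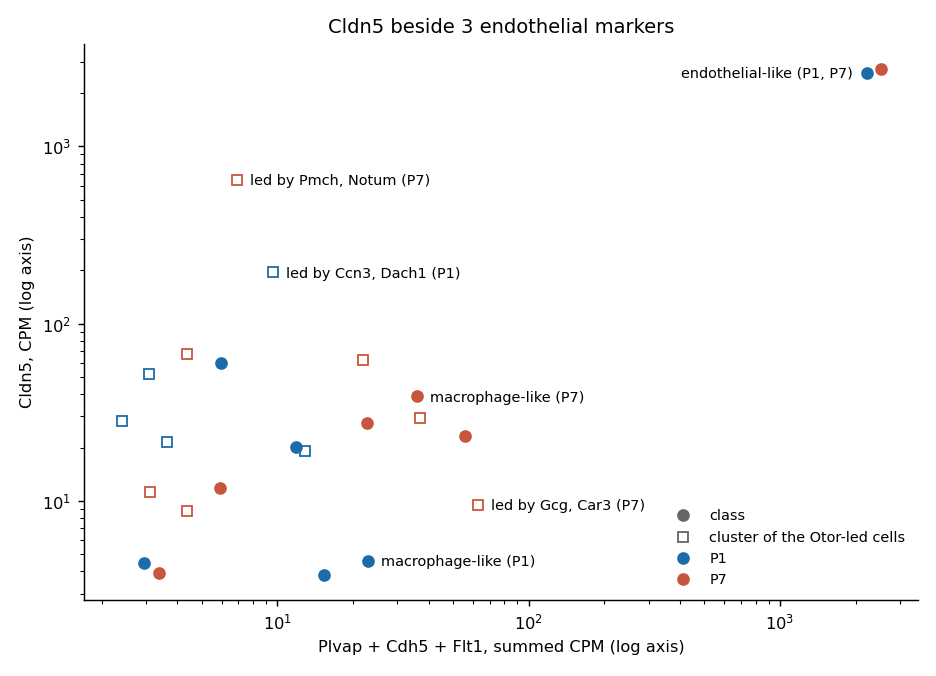
Cldn5 (CPM, log axis) against the summed level of Plvap, Cdh5 and Flt1 (CPM, log axis) in cell classes (filled circles) and clusters of the Otor-led cells (open squares) at P1 (blue) and P7 (red), with classes at 0 for the 3 markers left out. The clusters led by Pmch and Notum (646 CPM) and by Ccn3 and Dach1 (195 CPM) lie above all other points but those of the endothelial-like cells.

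In glia-like cells Cldn5 was at 4.49 CPM at P1 and 11.8 CPM at P7, and a UMI was found in 1.96% and 3.37% of cells. In macrophage-like cells it was at 4.59 and 39.0 CPM, in 3.16% and 7.39% of cells, at medians of 7276 and 6969 UMIs per cell against 4247 and 4802 in glia-like cells. At P7 1 macrophage-like cell held 30 of the 54 UMIs. Of the macrophage-like cells, 13.7% at P1 and 14.8% at P7 were called doublets. Whether the values in glia-like cells exceed background was not tested. In the glia-like class 4 of the 7 claudins reached 20 UMIs and 3 of these (Cldn5, Cldn6 and Cldn9) passed 2-fold higher at P7, where 15.5% of genes did, but Cldn6 and Cldn9 stood at 0.789 and 2.51 CPM at P7. None passed lower, where 11.9% did. Cldn11, the fourth, was at 17.5 and 26.0 CPM in glia-like cells, beside 7.87 and 20.9 CPM in macrophage-like cells, and the sign of its ratio turned under 3 alternatives. Outside the 7, Cldn19, known from the junctions of Schwann cells, was at 57.0 CPM at P1 and 256 CPM at P7, a log2 ratio of 2.17 (2.04 to 2.30), beside 1.31 and 21.7 CPM in macrophage-like cells.

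Cldn11 was highest in the Aldh1a2 mesenchyme-like cells, named for the gene of a retinoic acid-making enzyme. It stood at 176 CPM (171 to 183) at P1 and 377 CPM (365 to 390) at P7, a log2 ratio of 1.10 (1.03 to 1.16). A UMI was found in 48.4% and 53.1% of cells, and after thinning in 25.1% and 36.1%. Of the Cldn11 UMIs in kept cells, the class held 52.6% at P1 and 53.1% at P7. In this class 3 of the 7 claudins reached 20 UMIs, and Cldn11 was the one past 2-fold higher at P7, where 13.2% of genes passed, with none lower, where 8.83% did. The size of the ratio depended on how the class was drawn. Finer clusters (resolution 1.2) gave 0.48, the use of 30 principal components 0.56 and a mitochondrial limit of 10% 0.43, and the ratio was above 0 under all 10 alternatives.

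Over the classes of the P7 library the order of Cldn11 was Aldh1a2 mesenchyme-like (377 CPM), epithelial-like (119), the unnamed cells (69.8), dividing cells (34.3), Otor-high (27.9), glia-like (26.0), macrophage-like (20.9), pericyte-like (13.8), interstitial mesenchyme-like (13.1), Ccn3 mesenchyme-like (3.66) and endothelial-like (2.43). The intervals of neighbours overlapped from dividing cells down to interstitial mesenchyme-like cells, and again for the last 2. At P1 the Aldh1a2 mesenchyme-like cells (176 CPM) were followed by the unnamed cells (102), dividing cells (55.1), interstitial mesenchyme-like cells (53.6), Otor-high cells (17.7), glia-like cells (17.5) and epithelial-like cells (13.6). Dividing and interstitial mesenchyme-like cells did not differ beyond counting error, nor did the last 3. An unnamed P1 cluster of 1552 cells led by Penk, Pnoc and Col8a1 had 110 CPM (103 to 116).

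Within the Aldh1a2 and Ccn3 mesenchyme-like cells, clustered again on their own, Cldn11 was highest at P7 in 460 cells led by Tnfrsf11b, Ramp1 and Clu. Its level there was 635 CPM (610 to 661), with a UMI in 84.6% of cells, and these cells held 38.5% of the Cldn11 UMIs in kept P7 cells. At P1 it was highest in 769 cells led by Ptgds, Clec1a and Camk4, at 276 CPM (263 to 290), with a UMI in 66.3% of cells. No cell of these 2 clusters came from the other library. A P7 cluster led by Rarres1, Notum and Scx, 390 cells, had 158 CPM, and a P7 cluster led by Car2, Igfbp7 and Slc29a1 had 1.57 CPM. The summed level of the 12 epithelial markers was 328 CPM in the Tnfrsf11b cluster, with 3 at 0 and Epcam at 3.64 CPM, and 255 CPM in the Ptgds cluster, with 1 at 0 and Epcam at 2.65 CPM. In the epithelial-like cells it was 3181.6 CPM at P1 and 4864.5 CPM at P7. Cldn5 was at 3.64 CPM in the Tnfrsf11b cluster and 3.31 CPM in the Ptgds cluster.

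**Figure D4:**
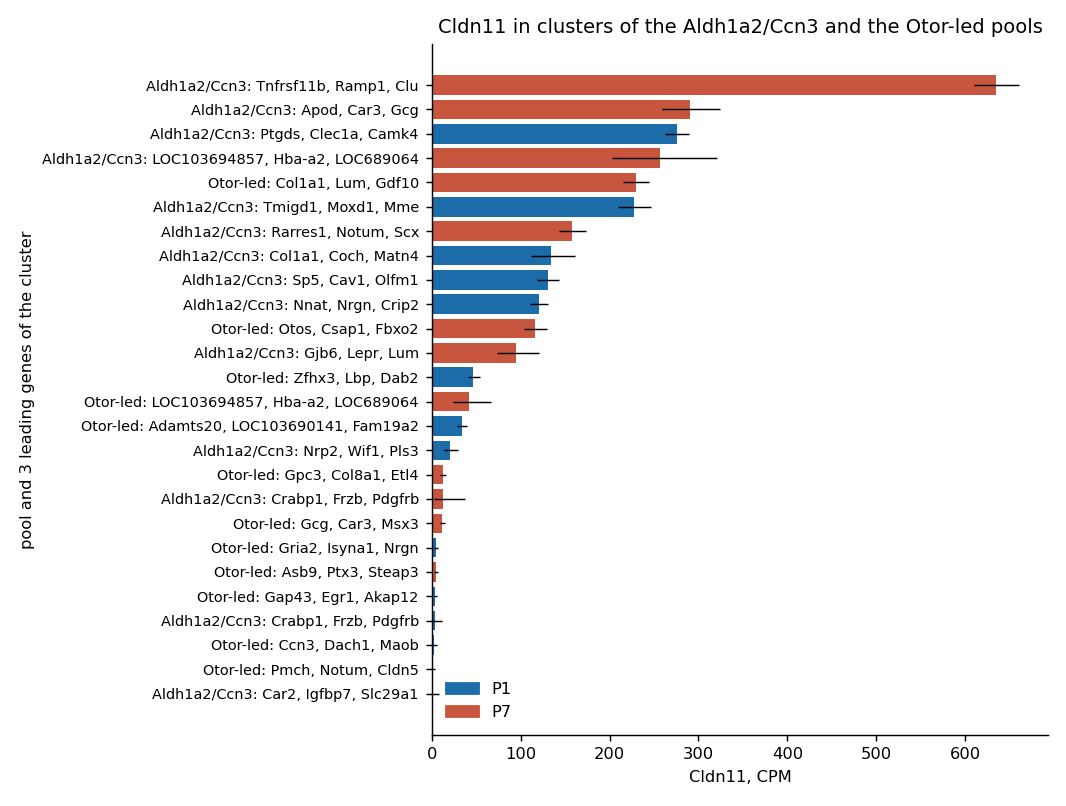
Cldn11 (CPM, bars from 0, with the 95% Poisson interval of the count) in clusters of at least 50 cells of an age within the Aldh1a2 and Ccn3 mesenchyme-like cells and the Otor-led cells, at P1 (blue) and P7 (red). The P7 cluster led by Tnfrsf11b, Ramp1 and Clu stood at 635 CPM, and the Otor-led clusters with most Cldn5 were at 3.20 CPM (P1) and 1.74 CPM (P7). Doublets were called in 71.1% of the cluster led by Apod, Car3 and Gcg (290 CPM at P7). In that led by Col1a1, Coch and Matn4 (135 CPM at P1) they were called in 75.8%. A cluster with haemoglobin genes among the leading ones (257 CPM at P7) was shallow, with a median of 1160.5 UMIs over the cluster.

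Cldn5 and Cldn11 were high in different clusters of the Otor-led cells. Where Cldn5 was at 646 CPM, Cldn11 was at 1.74 CPM, and where Cldn5 was at 195 CPM, Cldn11 was at 3.20 CPM. Cldn11 was at 230 CPM (216 to 244) in 518 P7 cells led by Col1a1, Lum and Gdf10, where Cldn5 was at 11.2 CPM. This level depended on the clustering, since the cluster holding most of the same cells had 48.2 CPM when 30 principal components were used and 135 CPM in finer clusters (resolution 1.2). Cldn11 was at 116 CPM (104 to 129) in 303 P7 cells led by Otos, Csap1 and Fbxo2, where Cldn5 was at 62.4 CPM. Otor itself was at 23786 CPM in the cluster led by Otos, but at 6206 CPM in that led by Col1a1, Lum and Gdf10. The latter is below the 10500 CPM of the P7 Aldh1a2 mesenchyme-like cells. The pool was drawn by its best marker list, not by Otor alone.

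**Figure D5:**
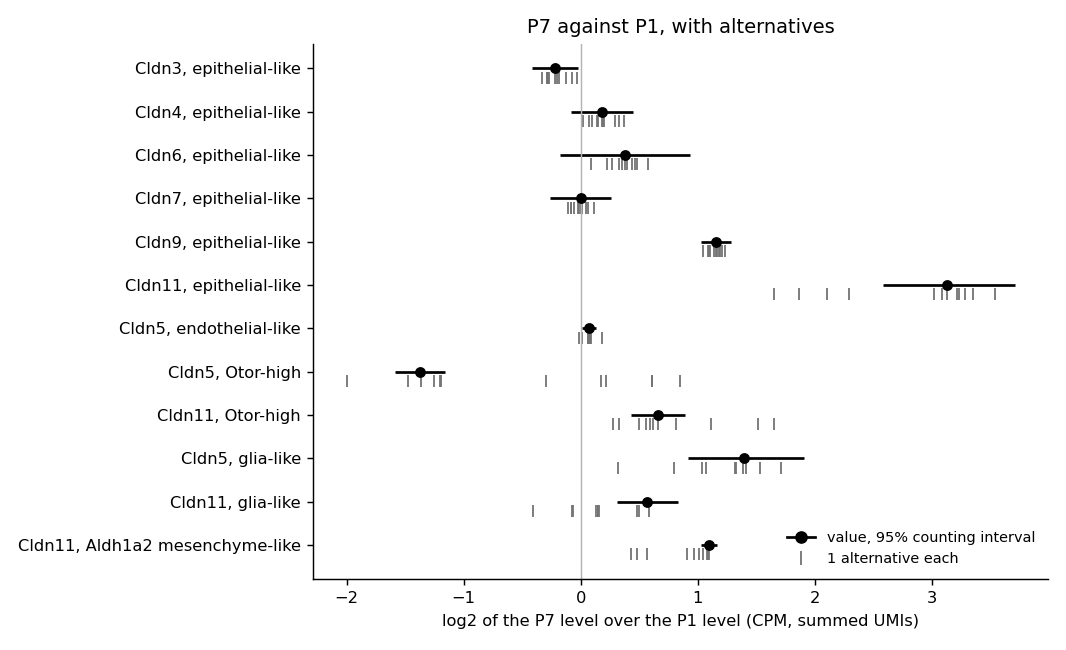
Log2 ratio of the P7 level to the P1 level for 12 pairs of claudin and class (points, with the 95% counting interval) and the same value under each alternative (grey ticks). Cldn9 in epithelial-like cells stayed between 1.04 and 1.23, whereas Cldn5 in Otor-high cells ran from -1.998 to 0.85.

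Over 30 profiles, each 1 cluster with at least 50 cells in 1 library, the 5 epithelial claudins followed each other, with Pearson correlations of log2(CPM + 5) between 0.963 and 0.989 for the 10 pairs. With Cldn5 and Cldn11 they were between -0.223 and 0.0997, and between Cldn5 and Cldn11 the value was -0.0623. These are descriptions, since the profiles share 2 libraries and the epithelial profiles carry most of the spread. Among 12589 genes with at least 200 UMIs, the 3 nearest to Cldn9 were Rab25, a small GTPase of epithelia (0.988), Smpx (0.988) and Cldn3 (0.984). Those nearest to Cldn3 were LOC103690070 (0.992), Smim22 (0.991) and the keratin gene Krt18 (0.991). Cldn4 had LOC103690070 (0.994), Muc15 (0.994) and Smim22 (0.992), and Cldn7 had LOC103690070 (0.992), Cldn3 (0.989) and Muc15 (0.988). Cldn6 had Crb3, of the apical polarity complex (0.986), Cldn4 (0.985) and Upk3bl1 (0.984). Cldn5 had Apln, the gene of apelin (0.9002), RGD1310587 (0.891) and Tmem252 (0.889). The nearest to Cldn11 were further off, with Crabp2, a retinoic acid-binding protein (0.783), Fibin (0.777) and Pappa2 (0.761).

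The rest of the family had 21 genes, of which 8 had at least 200 UMIs over both libraries, and 5 of the 28 had none. In the epithelial-like cells, Cldn8 was at 113 CPM at P1 and 313 CPM at P7, a log2 ratio of 1.47 (1.25 to 1.68). Cldn23 was at 16.2 and 105 CPM (2.69, 2.18 to 3.24), and Cldn14, a claudin of hair cells and supporting cells, at 20.004 and 60.2 CPM (1.59, 1.08 to 2.12). Cldn10 was at 10.2 and 18.6 CPM (0.86, 0.06 to 1.68). Cldn15 was highest in endothelial-like cells, at 5.48 and 26.1 CPM. Cldn1 was highest in interstitial mesenchyme-like cells, at 36.1 and 25.8 CPM, and Cldn12 did not exceed 15.3 CPM in any class of at least 50 cells. Of the 21, 7 reached 20 UMIs in the epithelial-like cells and 5 of these passed 2-fold higher at P7, beside the 13.7% of all genes given above. They were Cldn8, Cldn14, Cldn23, Cldn22 (5.11 and 18.0 CPM) and Cldn19 (0.426 and 22.5 CPM), of which Cldn19 was at the level of macrophage-like cells.

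Of the 30 genes of the junction list, which holds scaffolds, other junction membrane proteins and polarity genes, 25 reached 20 UMIs in the epithelial-like cells. Of these, 4 passed 2-fold higher at P7 and 2 lower, where 13.7% and 7.86% of all genes did, and their median log2 ratio was 0.30, beside 0.14 over all genes. Those higher were Tjp3, a scaffold that binds claudins (5.11 and 18.0 CPM), Cgn, which encodes cingulin (10.6 and 23.1), Ildr1, a protein of tricellular junctions (17.5 and 50.1), and Cdh1, which encodes E-cadherin (59.2 and 121 CPM). Those lower were Cgnl1 (37.5 and 16.9 CPM) and Jam2 (9.36 and 3.38 CPM). Occludin, from Ocln, was at 45.1 and 47.8 CPM. In the endothelial-like cells 17 genes of the list reached 20 UMIs and none passed 2-fold either way, where 11.2% of all genes were higher and 5.81% lower, with a median log2 ratio of -0.08 beside 0.15. Over the other cells of their library, 9 of the 28 tested passed 2-fold in the endothelial-like cells at each age, where 5.54% and 5.61% of all genes did. In the epithelial-like cells 14 of 28 passed at P1 and 11 of 28 at P7, where 4.68% and 6.07% did. Epcam and Cdh1 were also among the markers that named the epithelial-like class, and Cdh5 and Esam among those of the endothelial-like class. These genes passed in their own class at both ages and are in the counts, which are thus partly set by the naming.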

How the data were processed

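Droplet single-cell RNA-seq of rat cochlear duct cells was used, 1 library at P1 and 1 at P7. Per the file headers and the methods, the authors deposited UMI counts per gene and barcode from Cell Ranger (3.1.0 in the headers), aligned to rn6, without normalization, with barcodes already called as cells. Barcodes were kept if they had over 500 and under 5000 genes, no fewer than 500 UMIs and a mitochondrial share below 25%. They were clustered together in Seurat 5.3.0 (R 4.3.3) with 1873 of 2000 variable genes, the markers, claudins and junction genes left out, 10 principal components, 20 neighbours and a resolution of 0.8. A cluster took the name of the marker list with the highest mean log2 ratio to the other cells (pseudocount 5 CPM), if at least 1 and with 3 markers in at least 10% of its cells. Pools of related clusters (epithelial-like with hair cell-like, Aldh1a2 with Ccn3 mesenchyme-like, and Otor-led) were clustered again by the same steps, a choice made after the data were seen. Scrublet (scanpy 1.11.5) marked 4.87% of P1 cells and 6.16% of P7 cells as doublets, which were kept.

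UMIs were summed per class and library (Python 3.11.15, numpy 2.4.6, scipy 1.17.1, pandas 2.3.3). Intervals are Poisson for CPM, Clopper-Pearson for shares and conditional binomial for ratios. A gene counted as past 2-fold from a log2 ratio of 1, with 0.5 added to both counts, among genes of at least 20 UMIs over both ages. A count of 0 was given a limit of 3 counts. Reads were counted before deposit, and 3′ counts were not scaled by gene length, so levels of different genes compare captured transcripts. Genes named were the members, other claudins of at least 200 UMIs, junction genes past 2-fold and the 3 genes most alike. Members, lists and the naming rule were chosen with earlier results of these data known. Steps were tested on simulated data. Upstream sequences are from RefSeq (GRCr8), which is not the build of the files.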

Additional observations from a re-analysis of the deposited data

Results flagged for a closer look

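Cldn5 had intervals of the P7 to P1 log2 ratio on opposite sides of 0 in different classes, and this difference was not tested, since each age is 1 library. The ratio was -1.37 in Otor-high cells (60.2 and 23.3 CPM), 0.067 in endothelial-like cells (2597 and 2721 CPM), 0.45 in Aldh1a2 mesenchyme-like cells (20.1 and 27.5 CPM) and 1.39 in glia-like cells (4.49 and 11.8 CPM). The glia-like levels stood beside 4.59 and 39.0 CPM in macrophage-like cells. The Otor-high value turned to 0.61 when the unnamed P7 cluster was counted with the class.

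Barcodes with 5000 or more genes, left out by the limits of the methods, held a large share of some claudins. At P1, 384 such barcodes held 37.3% of the Cldn5 UMIs of all barcodes, with a UMI in 24.2% of them. The share of the Cldn5 UMIs at P7 was 15.0%. At P7, 86 such barcodes held, again of all barcodes, 29.5% of the Cldn3 UMIs, 27.0% of the Cldn4 UMIs and 21.1% of the Cldn7 UMIs. Their summed endothelial markers were at 982 CPM at P1 and 1457 CPM at P7, and their summed epithelial markers at 253 and 1407 CPM.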

How the results depend on the processing

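No paired analysis was possible because each age is 1 library, and for the same reason no replicate could be left out. In epithelial-like cells Cldn3, Cldn4, Cldn6, Cldn7 and Cldn9 stayed within their counting intervals under 11 alternatives each. None of the alternatives changed the limit of 5000 genes per cell. Other log2 ratios of P7 to P1 moved, and the cause was not tested. Cldn11 in epithelial-like cells was 1.86 with 30 principal components, 2.10 as a mean of per-cell values, 2.29 without the doublet-rich and pigment gene clusters and 1.65 without the 10 cells with most UMIs. Cldn5 in endothelial-like cells was -0.012 with mitochondrial UMIs under 10% and 0.18 as a mean of per-cell values. Cldn5 in Otor-high cells was 0.61 with integrated libraries, 0.17 at a resolution of 1.2, -0.30 with 30 principal components, 0.85 with all variable genes, 0.21 with mitochondrial UMIs under 10%, 0.61 with every Otor-led cluster and -1.998 without the 10 cells with most UMIs. Cldn11 there was 0.28 with integrated libraries, 1.51 at a resolution of 1.2, 1.11 with all variable genes, 0.32 with mitochondrial UMIs under 10% and 1.65 with every Otor-led cluster. In glia-like cells Cldn5 was 0.32 with 30 principal components and 0.80 without doublets, and Cldn11 was -0.076 with integrated libraries, 0.13 and 0.14 at resolutions of 0.4 and 1.2, -0.40 with 30 principal components, -0.069 with all variable genes, 0.15 with mitochondrial UMIs under 10% and 0.15 without doublets. In Aldh1a2 mesenchyme-like cells Cldn11 was 0.91 with integrated libraries, 0.96 and 0.48 at resolutions of 0.4 and 1.2, 0.56 with 30 principal components, 0.43 with mitochondrial UMIs under 10% and 1.01 scaled without ribosomal, haemoglobin and mitochondrial genes. Claudins past 2-fold higher in Otor-high cells numbered 0 with integrated libraries and 2 with all variable genes, and those lower 0 under these 2, a resolution of 1.2, 30 principal components and mitochondrial UMIs under 10%. In glia-like cells 1 was higher with 30 principal components, mitochondrial UMIs under 10% or doublets removed, and in Aldh1a2 mesenchyme-like cells 0 with integrated libraries or another resolution. These counts do not say which claudin passed. In Aldh1a2 mesenchyme-like cells Cldn11 itself was also short of 2-fold with 30 principal components (0.56) and with mitochondrial UMIs under 10% (0.43). Thinning to 1000 UMIs lowered the shares of cells, to 24.7% and 48.9% for Cldn9 in epithelial-like cells. Cldn7 in epithelial-like cells, at -0.00, kept its sign in 7 of 11 alternatives and lay between -0.11 and 0.12.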
